A study of Homo sapiens with 8 samples.

Results

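The human mitochondrial chromosome carries 37 genes in the deposited gene table, out of 58735 rows, and all of them were taken because the table places them on chromosome MT. They comprise 13 protein genes, 2 ribosomal RNA (rRNA) genes and 22 transfer RNA (tRNA) genes. They were followed in Caco-2 cells, a human colorectal carcinoma line used as a stand-in for intestinal epithelium, that had received M2-exo (M2-exo treated, 3 libraries) or PBS, a saline buffer (called untreated in the sample titles, 3 libraries). M2-exo are exosomes, vesicles shed by cells, and the labels derive them from the monocytic leukaemia line THP-1. All Caco-2 samples carry the genotype label wild type, and total RNA is named as the molecule while the titles speak of mRNAs. The sources used here do not give the dose and time of the treatment, the culture origin of the replicates or the kind of RNA selection. The p-values therefore measure only the spread between these libraries, which may be technical.

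Mitochondrial DNA is a small circle present in many copies per cell, and both of its strands are copied into long precursor RNAs that are then cut at the tRNAs lying between the other genes. The 13 protein genes encode core parts of respiratory complexes I, III and IV and of ATP synthase (complex V), and the rRNA and tRNA genes serve the mitochondrion's own ribosome. In the absorptive epithelium of the gut these complexes are a main source of the energy used for transport, and the proteins of transcription, RNA processing and translation in the organelle are made from nuclear genes.

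The measurements are read counts per gene. Library totals ranged from 15608937 to 18324599 counts, of which 648571 to 1474454 fell on the mitochondrial chromosome. Of 12 epithelial and Caco-2 markers, 10 averaged at least 1 CPM (counts per 1e6 counts, scaled by TMM), up to 4890 CPM in treated and 5000 CPM in untreated cells for KRT8, while CDX1 and KRT20 lay near 0. The 10 macrophage markers summed to 13.7 CPM in treated and 15 CPM in untreated cells, mainly from CD14, CSF1R and LYZ, and CD68 and CD33 had no count. The cell type label "stem cells" given to all samples is not one these markers address.

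Per length, the 13 protein and 2 rRNA genes spanned a wide range, and the tRNA genes are left out of the order given here. The order was read from the deposited FPKM values (fragments per kilobase of gene and per 1e6 fragments), and levels per length are compared between genes on this scale only. Counts, where genes are ordered by them, also grow with gene length. MT-CO1, the catalytic subunit of complex IV (chromosome MT, 5904 to 7445, plus strand, GRCh38), stood first with 15121 ± 361 FPKM in treated and 12977 ± 2222 FPKM in untreated cells (SD, n = 3 each). It was followed by MT-CO3 and MT-CO2, the other complex IV subunits encoded on this chromosome. These stood at 9468 ± 1867 and 8324 ± 534 FPKM in treated cells and 8193 ± 3100.3 and 5925 ± 2937 FPKM in untreated cells. MT-CO1 exceeded MT-CO3 in 6 of 6 libraries, and MT-CO3 exceeded MT-CO2 in 5 of 6. The next group was MT-ATP6, MT-ND4L and MT-ND4, whose means over all libraries were 6991, 6791 and 6560.1 FPKM. Neighbours in this group changed places between libraries and did not differ beyond their spread.

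Below them came MT-RNR2, the rRNA of the large mitochondrial ribosomal subunit, at 4530.0 FPKM over all libraries. Then came the complex I genes MT-ND1 and MT-ND2 at 3452 and 2805 FPKM, and MT-CYB, the complex III subunit encoded on this chromosome, at 1921 FPKM. MT-ND3, MT-ND6 and MT-ND5, all of complex I, lay at 1648, 1284 and 1172 FPKM, and MT-ND6 exceeded MT-ND5 in 4 of 6 libraries. MT-RNR1, the rRNA of the small ribosomal subunit, averaged 576 FPKM. The last of the 15 was MT-ATP8, a subunit of ATP synthase, at 46.2 FPKM. The ranges over the 6 libraries overlapped for each pair of neighbours in this order except MT-RNR1 and MT-ATP8, which stood 12.5-fold apart. MT-ND2 over MT-CYB, MT-CYB over MT-ND3, MT-ND3 over MT-ND6 and MT-ND5 over MT-RNR1 nevertheless held in 6 of 6 libraries. Genes on the same plus strand thus differed widely in level, also where they lie next to each other along the chromosome.

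**Figure D1:**
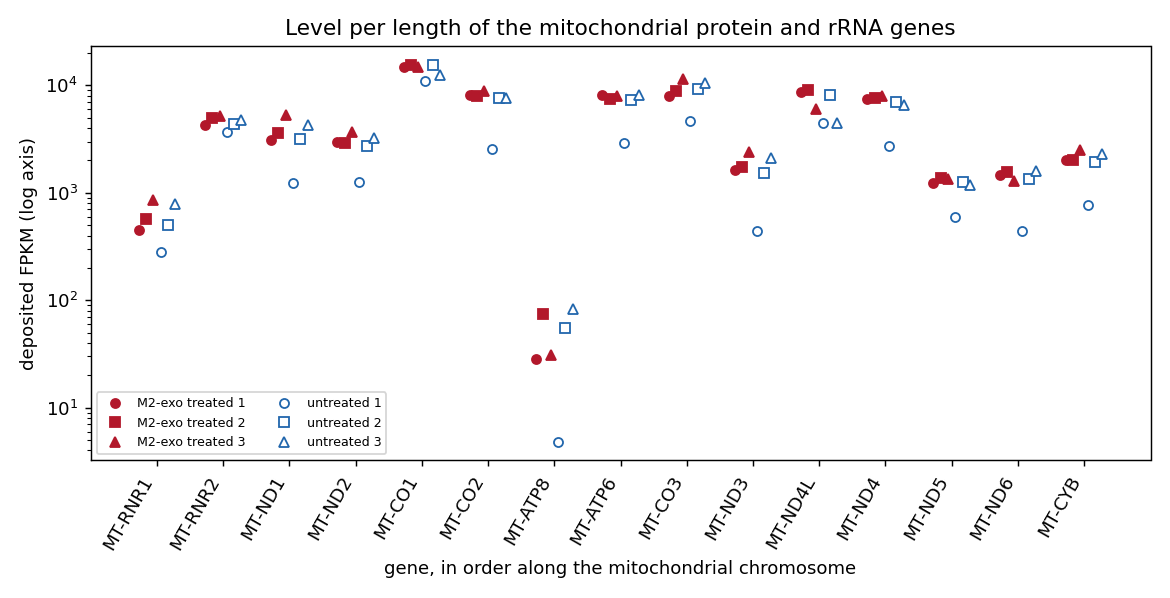
Deposited FPKM (log axis) of the 13 protein and 2 rRNA genes in order along the chromosome, with 1 point per library, M2-exo treated filled and untreated open. MT-CO1 is the highest gene in every library, MT-ATP8 lies far below the rest, and untreated 1 is the lowest library for all 15 genes.

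Several of these levels belong to genes that share a transcript or bases. MT-ATP8 and MT-ATP6 are carried on a common mRNA, and 46 of the 207 bases of MT-ATP8 lie within MT-ATP6. The FPKM of MT-ATP8 was 0.00348, 0.01 and 0.00384 times that of MT-ATP6 in treated 1 to 3 and 0.00165, 0.00764 and 0.0103 times in untreated 1 to 3. MT-ND4L and MT-ND4 also share an mRNA, with 7 bases in common, and there the ratio was 1.17, 1.20 and 0.752 in treated 1 to 3 and 1.61, 1.16 and 0.676 in untreated 1 to 3. The sources used here do not say how reads over shared bases were assigned, so the counts of both pairs are uncertain at that point. The part of the counting in the low MT-ATP8 values was not tested.

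The mitochondrial genes together held 7.50%, 7.486% and 8.11% of all counts in treated 1 to 3, against 4.16%, 7.483% and 7.01% in untreated 1 to 3. Exact 95% binomial intervals were narrow (7.47 to 7.50% for treated 2 and 7.47 to 7.50% for untreated 2), and they cover counting error only. The lowest treated library and the highest untreated library were therefore indistinguishable at this depth, although the groups do not overlap by value. Means were 7.70 ± 0.355% in treated and 6.22 ± 1.80% in untreated cells (SD, n = 3 each), a difference of 1.48 percentage points (exact 2-sided permutation p = 0.1, the smallest that 3 against 3 libraries allow; 0.4 adjusted over the 4 shares tested). With FPKM sums in place of counts the difference was 5.13 points (exact permutation p = 0.1), and with protein-coding genes only it was 1.43 points and the groups overlapped (exact permutation p = 0.2). Within replicate numbers the difference was 3.345, 0.00284 and 1.10 points, and without untreated 1 it was 0.453 points. In a share of all counts, less mitochondrial RNA and more of the other RNA cannot be told apart.

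The drop in untreated 1 differed between genes. MT-CO1 and MT-RNR2 are set apart here because their drop was the smallest among the 15 protein and rRNA genes, a choice made after their values were seen, so the split only describes it. MT-CO1 and MT-RNR2 together held 3.05%, 3.12% and 3.09% of all counts in treated 1 to 3 and 2.33%, 3.14% and 2.63% in untreated 1 to 3. The 35 other genes held 4.45%, 4.37% and 5.02% in treated 1 to 3 and 1.83%, 4.35% and 4.38% in untreated 1 to 3. Untreated 1 was the lowest library in both, by less for this pair of genes than for the rest. Within the mitochondrial counts, the pair made up 56.0% in untreated 1, against 37.5 to 41.9% elsewhere.

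**Figure D2:**
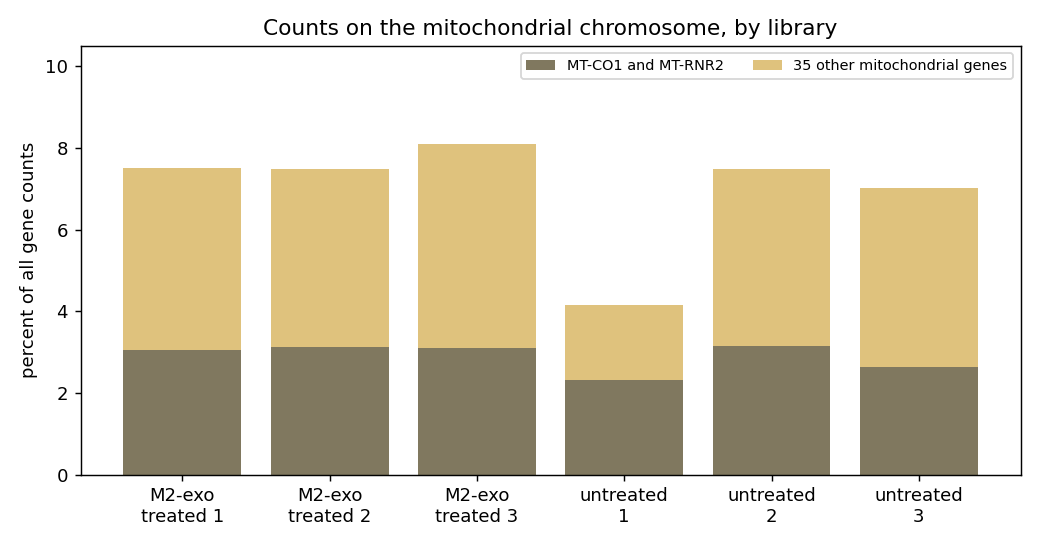
Percent of all gene counts on the mitochondrial chromosome in each library, as bars from 0 split into MT-CO1 with MT-RNR2 (dark, set apart for their small drop in untreated 1) and the 35 other genes (light). The light part is 1.83% in untreated 1 and 4.35 to 5.02% in the other libraries.

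The next comparison asked whether mitochondrial transcripts differed after M2-exo. None of the 26 members with enough counts to test passed edgeR's quasi-likelihood test (adjusted p = 0.9999 for each), and neither did any other of the 15084 genes tested, so that 0% of genes were called higher and 0% lower. An unadjusted p under 0.05 was reached by 111 genes in all (0.736%) and by 1 member, MT-TP. DESeq2 and limma-voom also called 0 genes, with 124 and 104 at an unadjusted p under 0.05. All 13 protein genes and both rRNA genes were tested. Of the protein genes, 12 had a log2 fold change above 0 with a median of 0.39, beside 47.1% of all genes above 0 and a median of -0.01. That median was 0.09, with 10 of 13 above 0, without untreated 1, and 0.65, with 13 of 13 above 0, without untreated 3.

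In complex I, which takes electrons from NADH, MT-ND4 took the most counts, while MT-ND4L was higher per length (FPKM) in 4 of 6 libraries. MT-ND4 stood at 10341, 10464 and 11038 CPM in treated 1 to 3 and 3834, 9747 and 9248 CPM in untreated 1 to 3. The groups did not overlap, yet the untreated libraries spanned far more than the gap between the groups (log2 fold change 0.48, SE 0.29, and 0.17 without untreated 1). MT-ND4L had 2596, 2697 and 1789 CPM in treated 1 to 3 and 1333, 2433 and 1347 CPM in untreated 1 to 3 (log2 0.47, SE 0.26). Here treated 3 and untreated 3 were low together, and the groups overlapped. MT-ND1 was highest in treated 3 and untreated 3, with 3025, 3433 and 5065 CPM in treated 1 to 3 and 1203, 3062 and 4180 CPM in untreated 1 to 3 (log2 0.45, SE 0.38, and 0.09 without untreated 1). MT-ND2, MT-ND3 and MT-ND5 gave log2 fold changes of 0.40, 0.50 and 0.39, and of 0.10, 0.09 and 0.13 without untreated 1. Summed over the 7 complex I genes, the level was 27413 ± 772 FPKM in treated and 20010.3 ± 7711 FPKM in untreated cells (SD, n = 3 each).

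In complex IV, which passes electrons to oxygen, MT-CO1 had 23235, 24004 and 23219 CPM in treated 1 to 3 and 17239.8, 23814 and 19543 CPM in untreated 1 to 3. Untreated 2 lay within the treated range and the others below it (log2 0.22, SE 0.14, and 0.12 without untreated 1). MT-CO2 had 5615, 5426 and 6168 CPM in treated 1 to 3 and 1759, 5251 and 5256 CPM in untreated 1 to 3, which left no overlap between the groups (log2 0.49, SE 0.34, and 0.13 without untreated 1). MT-CO3 had 6349.5, 6924 and 9164 CPM in treated 1 to 3 and 3735, 7301 and 8414 CPM in untreated 1 to 3 (log2 0.21, SE 0.27). Its value without untreated 1 was -0.064, so its direction rested on that library. The FPKM of MT-CO2 was 0.545, 0.5096 and 0.599 times that of MT-CO1 in treated 1 to 3 and 0.230, 0.497 and 0.606 times in untreated 1 to 3, with untreated 1 far below the rest. The 3 genes summed to 32914 ± 2248 FPKM in treated and 27095 ± 7704 FPKM in untreated cells (SD, n = 3 each).

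MT-CYB of complex III, which hands electrons to cytochrome c, stood at 2322, 2312 and 2866 CPM in treated 1 to 3 and 890.4, 2236 and 2634 CPM in untreated 1 to 3 (log2 0.38, SE 0.33, and 0.045 without untreated 1). Untreated 3 exceeded treated 1 and 2. MT-ATP6, part of the proton channel of ATP synthase, had 5635, 5080 and 5496 CPM in treated 1 to 3 and 2024, 4989 and 5578 CPM in untreated 1 to 3 (log2 0.36, SE 0.31, and 0.04 without untreated 1). MT-ATP8 had 5.97, 15.4 and 6.41 CPM in treated 1 to 3 and 1.02, 11.6 and 17.4 CPM in untreated 1 to 3. Its log2 fold change of -0.11 (SE 0.74) became 0.44 with limma-voom, so no direction can be read. The 2 complex V genes summed to 7920 ± 360.4 FPKM in treated and 6155 ± 2819 FPKM in untreated cells (SD, n = 3 each). The untreated libraries were the more variable group for all 15 protein and rRNA genes, with a median coefficient of variation of 12.7% in treated and 45.4% in untreated cells. That rested on untreated 1: over untreated 2 and 3 alone the median was 12.3%, and 6 of the 15 genes were more variable there than in treated cells, a comparison added after the data were seen. Untreated 1 was the lowest library for all 15 genes, and for 4439 of the 15084 genes tested. Over all genes tested, the median CPM ratio of untreated 1 to the mean of untreated 2 and 3 was 1.0. The share of all genes more variable in untreated cells is not given here.

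Among these 15 genes, 2 (13.3%) had all treated libraries above all untreated ones and none the reverse, beside 1.65% of all genes tested that were higher without overlap and 2.3% that were lower. The 2 genes are MT-ND4 and MT-CO2. The 15 genes come from the same precursors and share the low library untreated 1, so they are not independent observations.

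The rRNA genes are read from the start of the plus-strand precursor. MT-RNR2 had 6664 and 7729 CPM in treated 1 and 2 and 8107 CPM in treated 3, against 5840.03, 6845 and 7549 CPM in untreated 1 to 3 (log2 0.15, SE 0.14, and 0.067 without untreated 1). It was the member with the smallest drop in untreated 1 among the protein and rRNA genes, at 0.811 times the mean of the other untreated libraries. MT-RNR1 had 436, 545 and 827 CPM in treated 1 to 3 and 272, 477 and 767 CPM in untreated 1 to 3 (log2 0.25, SE 0.35, and -0.037 without untreated 1). The FPKM of MT-RNR1 was 0.107, 0.115 and 0.167 times that of MT-RNR2 in treated 1 to 3 and 0.0761, 0.114 and 0.166 times in untreated 1 to 3. The ratio was nearly equal in treated 2 and untreated 2, and in treated 3 and untreated 3, and differed between these numbers.

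Set side by side by replicate number, the 3 treated-to-untreated ratios differed in size. For number 1 all 13 protein genes and both rRNA genes lay above 0, with a median log2 ratio of 1.38 for the protein genes. For number 2 the median was 0.10 with 12 of 13 above 0, and for number 3 it was 0.18 with 10 of 13 above 0. Over all genes with counts in both libraries, the medians were 0.0025, 0.0051 and -0.01. The largest ratios for number 1 were those of MT-ATP8 (2.55), MT-ND3 (1.89), MT-ND6 (1.72) and MT-CO2 (1.675), and the smallest those of MT-RNR2 (0.19) and MT-CO1 (0.43). For numbers 2 and 3 the ratios lay between -0.32 and 0.41, except for MT-ATP8 with 0.42 and -1.44.

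**Figure D3:**
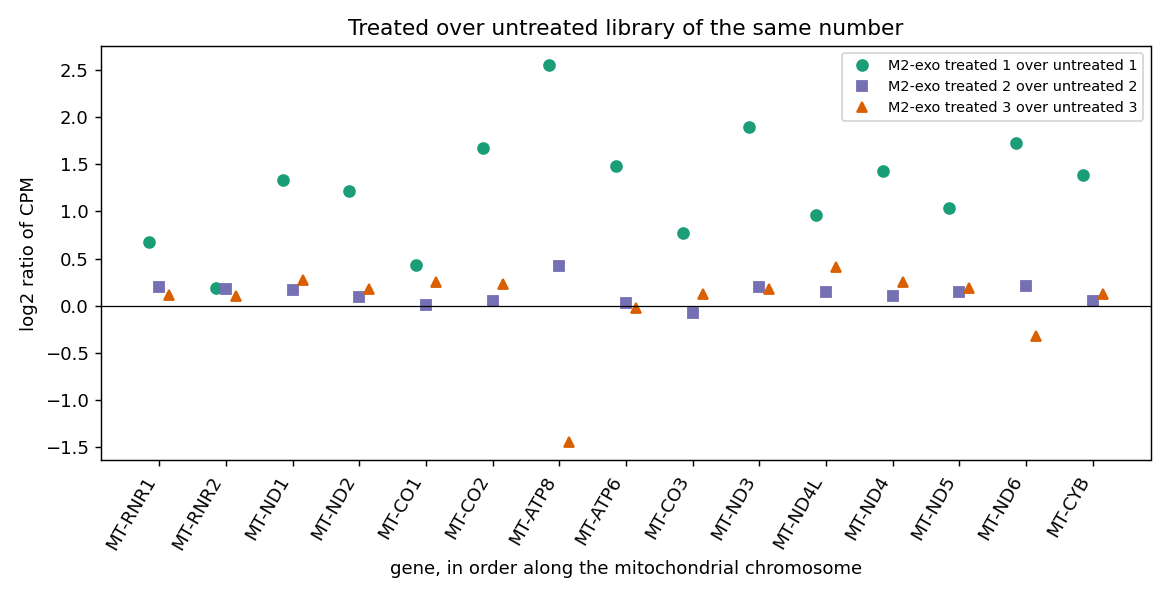
Log2 ratio of CPM, treated over untreated library of the same number, for the 13 protein and 2 rRNA genes in order along the chromosome (circles number 1, squares number 2, triangles number 3). Number 1 ranges from 0.19 to 2.55, while numbers 2 and 3 lie between -0.32 and 0.41 for all genes but MT-ATP8.

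Among the 13 protein and 2 rRNA genes, the drop in untreated 1 differed between length classes. Relative to the mean of untreated 2 and 3, the CPM ratio of the 6 protein and rRNA genes over 1000 bases was 0.366 to 0.811 with a median of 0.462. The 6 genes of 500 to 1000 bases gave 0.298 to 0.475 with a median of 0.359. The 3 shorter protein genes gave 0.0702 for MT-ATP8 (16 counts in untreated 1), 0.244 for MT-ND3 and 0.705 for MT-ND4L, which went against the order of the others. The longest gene, MT-ND5 with 1812 bases, had a ratio of 0.496, below the 0.795 of MT-CO1 with 1542 bases. The 11 tested tRNA genes, at most 75 bases long, gave 0 to 1.76 with a median of 0.374, and MT-TP among them gave 0.818. Their median was thus not below that of the genes of 500 to 1000 bases. Length therefore did not order the genes fully.

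The nuclear genes of the same libraries also differed by length. Nuclear protein-coding genes with a deposited length under 1 kb took 0.497%, 0.530% and 0.611% of nuclear protein-coding counts in treated 1 to 3, and 0.458%, 0.517% and 0.665% in untreated 1 to 3. Untreated 1 was lowest and the libraries numbered 3 were highest. The count-weighted median length was 5690 bases in untreated 1 and 5418 to 5587 bases in the other libraries. Cytosolic ribosomal protein genes took 4.19%, 4.39% and 4.37% of counts in treated 1 to 3 and 4.56%, 4.35% and 4.795% in untreated 1 to 3, so they were not lowest in untreated 1. The part of these library features in the mitochondrial values was not tested.

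**Figure D4:**
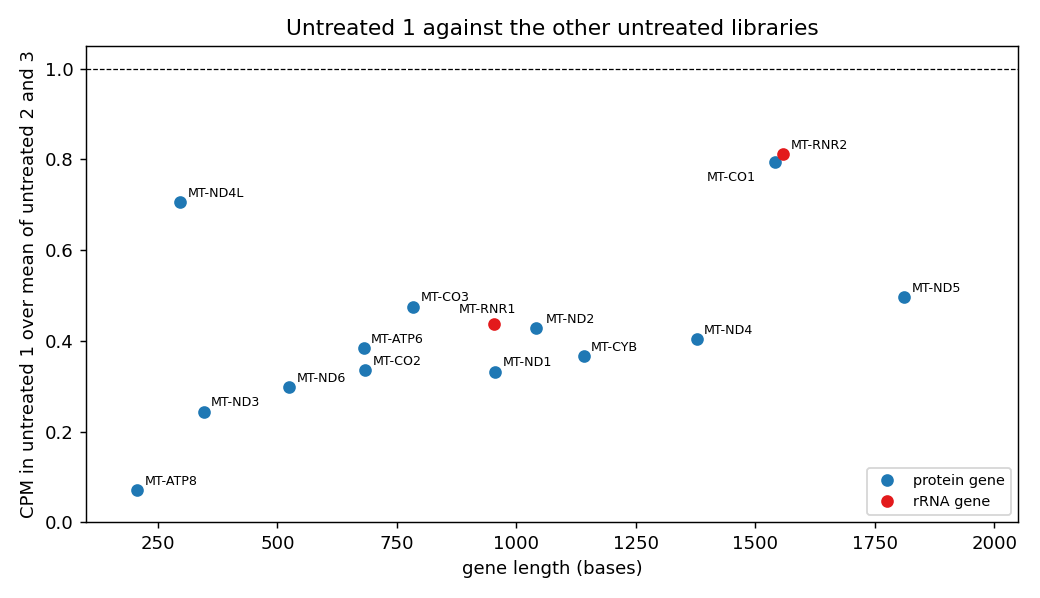
CPM in untreated 1 over the mean of untreated 2 and 3 against gene length in bases for the 13 protein (blue) and 2 rRNA genes (red), with a dashed line at a ratio of 1. All ratios lie under 1, from 0.0702 for MT-ATP8 to 0.811 for MT-RNR2, and MT-ND4L at 0.705 stands above the other short genes.

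The 22 tRNA genes, 59 to 75 bases long, held 0.654 to 0.7825% of mitochondrial counts in treated and 0.5495 to 0.767% in untreated libraries. Most of this came from the minus strand, where 8 tRNA genes took 92.5 to 95.8% of tRNA counts over the 6 libraries. MT-TN, the tRNA for asparagine, was the most counted, with 5724, 6863 and 3998 counts in treated 1 to 3 and 1886, 6616 and 3390 counts in untreated 1 to 3. The 5 most counted genes, which also include MT-TC (cysteine), MT-TP (proline), MT-TL1 (a leucine tRNA) and MT-TY (tyrosine), held 97.1 to 98.0% of tRNA counts. The other 17 had at most 64 counts in any library. The lowest were MT-TF (phenylalanine), with 0, 1 and 0 counts in treated 1 to 3 and 4, 1 and 0 in untreated 1 to 3, and MT-TS2 (a serine tRNA), with 0, 4 and 0 in treated 1 to 3 and 0, 0 and 6 in untreated 1 to 3. A count of 0 allows up to 0.164 to 0.192 CPM, depending on the library. The sources used here do not say whether the counting used strand, so reads of a minus-strand gene and of RNA antisense to it cannot be told apart.

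MT-TY, MT-TC and MT-TN lie next to each other on the minus strand (chromosome MT, 5826 to 5891, 5761 to 5826 and 5657 to 5729, GRCh38), just before MT-CO1 on the plus strand. MT-TY had 3.10, 1.84 and 41.5 CPM in treated 1 to 3 and 1.02, 1.96 and 52.2 CPM in untreated 1 to 3. Treated 3 and untreated 3 averaged 23.7 times the mean of the other libraries, and the groups overlapped (log2 -0.25, SE 1.39). MT-TC was also highest in those libraries, at 159 CPM in treated 3 and 165 CPM in untreated 3, against 74.1 and 93.9 CPM in treated 1 and 2 and 47.4 and 88.9 CPM in untreated 1 and 2. MT-TC gave a log2 fold change of 0.12 (SE 0.42) and MT-TN of 0.46 (SE 0.37), which was 0.16 without untreated 1 and 1.03 without untreated 2. MT-TN was lower in number 3 than in number 2, at 394 and 223 CPM in treated 2 and 3 and 370.1 and 191 CPM in untreated 2 and 3. The FPKM of MT-TC was 0.2545, 0.2635 and 0.791 times that of MT-TN in treated 1 to 3 and 0.438, 0.266 and 0.954 times in untreated 1 to 3. For all 3 genes, treated 2 lay near untreated 2 and treated 3 near untreated 3. The sources used here do not say what the numbers stand for.

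**Figure D5:**
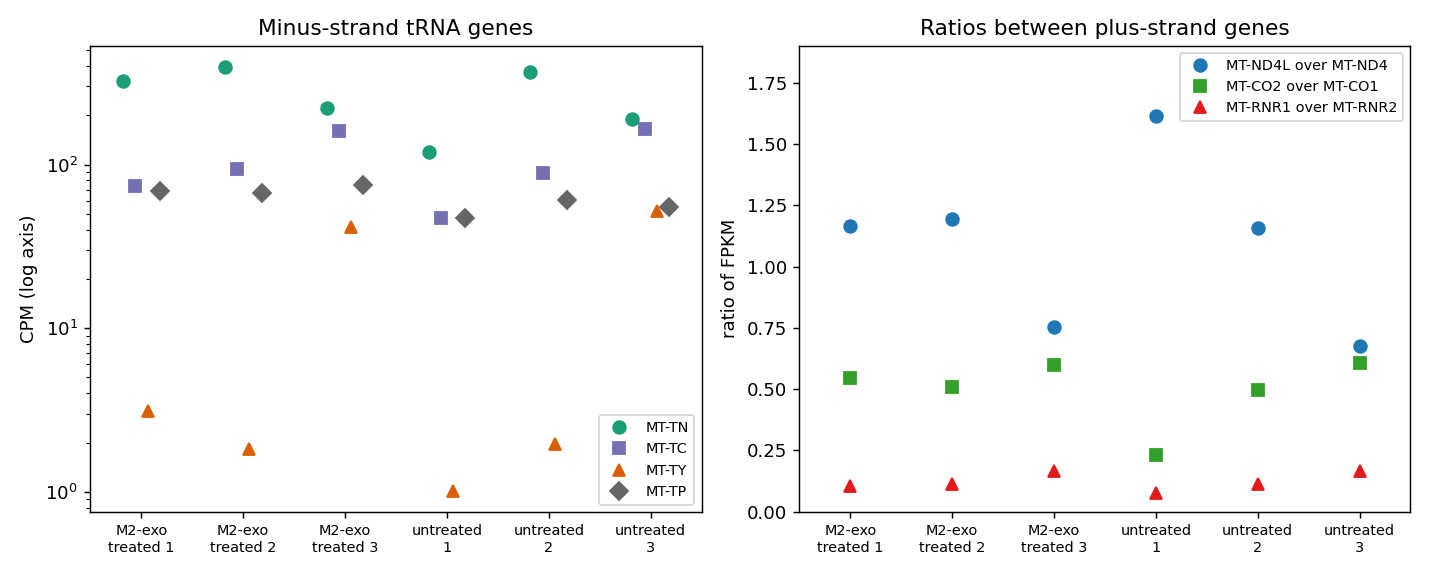
Left, CPM (log axis) of 4 minus-strand tRNA genes by library; right, FPKM ratio by library of MT-ND4L over MT-ND4, MT-CO2 over MT-CO1 and MT-RNR1 over MT-RNR2. MT-TY is at 41.5 CPM in treated 3 and 52.2 CPM in untreated 3 and at most 3.10 CPM elsewhere, and the MT-ND4L to MT-ND4 ratio is 0.752 and 0.676 in those libraries and 1.16 to 1.61 elsewhere.

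MT-TP, on the minus strand next to the control region, was the member of smallest unadjusted p. It had 69.2, 66.7 and 75.2 CPM in treated 1 to 3 and 47.2, 60.4 and 55.0 CPM in untreated 1 to 3, with no overlap between the groups (log2 0.38, SE 0.15, edgeR unadjusted p = 0.0347, adjusted p = 0.9999). In untreated 1 it stood at 0.818 times the mean of the other untreated libraries, and its log2 fold change was 0.29 without that library. MT-TL1, between MT-RNR2 and MT-ND1, had 28.8, 28.1 and 27.6 CPM in treated 1 to 3 and 4.45, 27.5 and 25.3 CPM in untreated 1 to 3. The groups did not overlap here either, but treated 3 and untreated 2 differed by under 0.1 CPM (log2 0.56, SE 0.50, and 0.10 without untreated 1).

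Of the tRNA genes, 11 passed the filter on low counts, each with at most 136 counts summed over a group apart from the 5 named above. Their log2 fold changes ran from -0.59 for MT-TG (glycine) to 0.94 for MT-TD (aspartate), with MT-TE (glutamate) at 0.59 (0.18 without untreated 1), MT-TS1 (a serine tRNA) at 0.40, MT-TT (threonine) at 0.19 and MT-TV (valine) at -0.04. MT-TD had 37, 39 and 9 counts in treated 1 to 3 and 0, 35 and 9 counts in untreated 1 to 3. Treated 2 lay near untreated 2 and treated 3 equalled untreated 3, and the log2 fold change was 0.38 without untreated 1. The 11 genes under the filter had 0 to 32 counts per library.

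MT-ND6 is the protein gene of the minus strand and encodes a complex I subunit. It had 770.3, 827 and 680.1 CPM in treated 1 to 3 and 233, 715 and 851 CPM in untreated 1 to 3 (log2 0.34, SE 0.38, and -0.036 without untreated 1). Untreated 3 was the highest library and untreated 1 the lowest. As a share of mitochondrial mRNA counts, MT-ND6 took 1.17%, 1.23% and 0.935% in treated 1 to 3 and 0.6695%, 1.10% and 1.34% in untreated 1 to 3, so the groups overlapped.

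Composition within the mitochondrial counts does not depend on library scaling. The rRNA share was 10.46 ± 0.694% in treated and 12.1 ± 2.47% in untreated cells (SD, n = 3 each), a difference of -1.66 percentage points (exact 2-sided permutation p = 0.4, 0.8 adjusted over the 4 shares). The highest value, 14.8%, was that of untreated 1, and the difference was -0.299 points without it. The tRNA share was 0.711 ± 0.0655% in treated and 0.671 ± 0.111% in untreated cells (exact permutation p = 0.6, adjusted 0.8). The share of all minus-strand genes was 1.65 ± 0.194% in treated and 1.54 ± 0.390% in untreated cells (exact permutation p = 0.9, adjusted 0.9). Both of these differences, 0.0401 and 0.114 points, turned to -0.0204 and -0.108 points without untreated 1. With 3 against 3 libraries none of these tests can go below 0.1. Among mitochondrial mRNA counts, complex I genes held 34.5%, 35.01% and 35.5% in treated 1 to 3 and 26.4%, 33.1% and 34.7% in untreated 1 to 3, and complex IV genes 53.4%, 54.0% and 53.0% in treated 1 to 3 and 65.2%, 55.8% and 52.4% in untreated 1 to 3. Untreated 1 was again apart from the other libraries.

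Copies of mitochondrial DNA in the nuclear genome can take reads from the genes they resemble. Of 407 such copies found by symbol, 55 had a count in any library, and 3 neighbours on chromosome 1 held 98.3% of those counts. MTND2P28 (chromosome 1, 629640 to 630683, GRCh38) had 4621, 4577 and 5186 counts in treated 1 to 3 and 1604, 4327 and 4456 counts in untreated 1 to 3. That was 7.43 to 8.67% of the MT-ND2 count in treated and 7.29 to 8.49% in untreated libraries, so the copy was low in untreated 1 together with the gene. MTATP6P1 (633696 to 634376) amounted to 4.84%, 5.64% and 4.18% of MT-ATP6 in treated 1 to 3 and 5.69%, 6.42% and 2.97% in untreated 1 to 3. MTCO1P12 (631074 to 632616) amounted to 0.130%, 0.113% and 0.127% of MT-CO1 in treated 1 to 3 and 0.132%, 0.144% and 0.289% in untreated 1 to 3, with untreated 3 apart from the rest. The sources used here do not say how reads matching several places were assigned, so the split between gene and copy is uncertain. With all copies added, the mitochondrial share of counts differed by 1.495 points between the groups, and by 1.48 points without them, but the groups then overlapped (exact 2-sided permutation p = 0.2).

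The last comparison concerned nuclear genes that maintain, transcribe, process and translate mitochondrial DNA and RNA, in 4 lists of 144 genes, of which 141 were tested. No member passed in either direction after adjustment over all genes with edgeR (0% of genes called). An unadjusted edgeR p under 0.05 was reached by 1 mitochondrial ribosome gene, beside 0.736% of all genes tested. Of 14 tested transcription genes 9 were above 0, with a median log2 fold change of 0.03, and of 36 RNA processing genes 22 were above 0, with a median of 0.02. Of 15 genes of DNA maintenance 5 were above 0 (median -0.09), and of 76 mitochondrial ribosomal protein genes 22 (median -0.05). Over all genes 47.1% were above 0, with a median of -0.01. Among the 141 genes, 2 of RNA processing were higher without overlap between the groups, beside 1.65% of all genes tested. Lower without overlap were 1 gene each of DNA maintenance, RNA processing and the mitochondrial ribosome, beside 2.3% of all genes tested.

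Among the transcription genes, POLRMT, the mitochondrial RNA polymerase, had 99.8, 125 and 134 CPM in treated 1 to 3 and 71.4, 116 and 155 CPM in untreated 1 to 3 (log2 0.07, SE 0.26). TFAM, which packs mitochondrial DNA and starts transcription, had 331, 307 and 298 CPM in treated 1 to 3 and 396, 288 and 271 CPM in untreated 1 to 3 (log2 -0.03, SE 0.16). Untreated 1 was thus the lowest library for POLRMT and the highest for TFAM. The initiation factor TFB2M, the elongation factor TEFM and the termination factor MTERF1 gave log2 fold changes of 0.06, -0.12 and 0.06, and MTERF2, the highest of the list, 0.20.

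LRPPRC, which stabilises mitochondrial mRNAs, had 523, 505 and 484 CPM in treated 1 to 3 and 639, 465 and 379 CPM in untreated 1 to 3 (log2 0.03, SE 0.19), and its partner SLIRP had 58.0, 73.4 and 44.8 CPM in treated 1 to 3 and 92.4, 54.5 and 45.7 CPM in untreated 1 to 3 (log2 -0.13, SE 0.28). Both were highest in untreated 1, the library with the lowest mitochondrial mRNA levels. The degradation enzymes PNPT1 and SUPV3L1 gave log2 fold changes of 0.03 and -0.02, GRSF1 of the RNA granules 0.16, and FASTKD2 and FASTKD5, which process particular mitochondrial RNAs, 0.05 and -0.03. ELAC2, which cuts the 3′ end of tRNAs, had 66.7, 73.8 and 72.0 CPM in treated 1 to 3 and 80.1, 76.1 and 77.1 CPM in untreated 1 to 3, all treated values below all untreated ones (log2 -0.13, SE 0.13). The same held for 2.3% of all genes tested. TRMT10C, part of the enzyme that cuts the 5′ end, gave 0.0024. High values in untreated 1 were not particular to LRPPRC and SLIRP. PNPT1 (165 CPM), SUPV3L1 (84.4 CPM), FASTKD2, FASTKD5, ELAC2 and TRMT10C were also highest in that library, while GRSF1 was not.

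PDE12, which removes poly(A) tails in mitochondria, was the highest of the processing list with 63.4, 65.3 and 68.4 CPM in treated 1 to 3 and 50.9, 56.6 and 58.6 CPM in untreated 1 to 3, without overlap (log2 0.25, SE 0.14). Over all genes tested, 1.65% were higher without overlap. NSUN3 was the lowest of the processing list (-0.24). The DNA polymerase gene POLG and the helicase gene TWNK gave log2 fold changes of 0.0030 and -0.01, within a list that ran from -0.33 for PRIMPOL to 0.09 for TOP3A. In the ribosomal list the ends were MRPL38 (0.30) and MRPL12 (-0.81), and MRPL12 had 4.45, 7.98 and 14.0 CPM in treated 1 to 3 and 2.79, 5.71 and 37.8 CPM in untreated 1 to 3. The libraries numbered 3 were again the highest in each group. All of these genes had an edgeR adjusted p of 0.9999.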

How the data were processed

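Counts per gene were deposited by the authors as whole numbers, with Ensembl identifiers, coordinates, strand and length. The submitters' processing notes name CASAVA, HISAT2, featureCounts and the build GRCh38, with no further detail. The sources used here give no versions, strand setting or rule for reads matching several genes. The deposited FPKM values equal each count divided by gene length and a constant per library (within 1% for all genes of at least 50 counts), and were used for levels per length. A further 6 columns of the gene tables match no sample and were not used.

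All 58735 rows entered edgeR 4.0.16 (R 4.3.3): filterByExpr by group, TMM scaling, quasi-likelihood F test, 2-sided, Benjamini-Hochberg adjustment at 0.05 over 15084 genes. An SE is the absolute log2 fold change over the root of its F statistic. CPM uses TMM scaling. Shares were compared by exact permutation over 3 against 3 libraries, with exact Clopper-Pearson 95% intervals; a count of 0 was limited at 3 counts. Alternatives were DESeq2 1.42.0, limma 3.58.1 (voom, or log2(FPKM + 1)), RLE factors, total counts, scaling on nuclear genes, no filter, a replicate block, FPKM sums, protein-coding genes only, added nuclear copies and each library left out. These intervals and limits cover counting error only. All members were described. Named nuclear genes were fixed names plus the highest and lowest of each list, copies those with at least 5 CPM, and tRNAs the 4 most and 2 least counted plus those tested. The members and lists were chosen with earlier results of these data known.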

Additional observations from a re-analysis of the deposited data

How the results depend on the processing

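edgeR called 0 genes in the whole table. It called 6 (3 higher, 3 lower), none on the mitochondrial chromosome, when only genes without any count were removed, and 0 to 1 when a library was left out; the 1 was BOLA2B without treated 2, a nuclear gene named after its values were seen. No member passed under any alternative run. Without the filter, 15 of 37 members and 493 of 29414 genes (1.68%) had an unadjusted p under 0.05, against 1 of 26 members and 111 of 15084 genes (0.736%) with it; the cause was not tested. Leaving out a library moved the difference in mitochondrial share between 0.453 and 2.12 percentage points, in rRNA share between -2.71 and -0.299, in tRNA share between -0.0204 and 0.0883, and in minus-strand share between -0.108 and 0.257.

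Of 364 recomputed member fold changes, 341 kept their sign and 23 did not. With the replicate block, limma-voom and limma on log2(FPKM + 1), MT-TY changed to 0.20, 0.35 and 0.38 and MT-ATP8 to 0.27, 0.44 and 0.45. The other changes of sign came from leaving out a library, with log2 fold changes from -2.89 to 3.37 for MT-TY, -0.69 to 0.55 for MT-ATP8, -0.037 to 0.69 for MT-RNR1, -0.19 to 0.11 for MT-TV, -0.24 to 0.68 for MT-TC, -0.064 to 0.445 for MT-CO3, -0.036 to 0.68 for MT-ND6 and -0.12 to 0.42 for MT-TT. RLE factors, total counts, scaling on nuclear genes only, no filter and DESeq2 changed no sign.

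Same-numbered libraries deviated from their group means with correlations of 0.28, -0.07 and 0.48 over nuclear genes for numbers 1 to 3. Libraries of different numbers gave -0.42 to 0.18. The libraries numbered 1 and 3 correlated best with their own number, and those numbered 2 did not. Deviations cancel out within each group, so these correlations are tied, and a high value for some pairs lowers those of others. The main fit did not take the numbers as pairs, and these correlations do not settle whether they are. With the replicate block 0 genes were called, 24 of 26 members were above 0, and 12 had an unadjusted p under 0.05, as did 211 of 15084 genes (1.4%) (smallest adjusted p over all genes 0.415, edgeR). Depth limits the 11 tRNA genes below the filter, with at most 32 counts per library. It also limits tested tRNA genes such as MT-TS1 (7 to 21 counts) and MT-TG (6 to 33 counts).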
